A study of Mus musculus with 12 samples.

Results

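The mouse mitochondrial chromosome carries 37 genes, namely 13 for messenger RNA (mRNA), 2 for ribosomal RNA (rRNA) and 22 for transfer RNA (tRNA). They were chosen by their symbols, which start with mt-, and all 37 were among the 46983 genes of the count table. Their levels were followed in osteoclasts, the bone-resorbing cells, which had been grown from bone marrow monocytes of C57BL/6 wildtype (WT) mice or of Mincle knockout (KO) mice, whose strain the labels do not name. Mincle is a receptor of myeloid cells that senses products of damaged cells and is encoded by Clec4e. Every culture was kept in medium with serum, M-CSF (20 ng/ml) and RANKL (10 ng/ml), the factors that drive osteoclast formation. On day 1 the cells were given, for 24 hours and at a ratio of 1 to 2, supernatant of viable osteocytes, which served as control, or of osteocytes that had been made necrotic by withdrawing serum. RNA was taken on day 3, and each of the 4 groups (WT viable, WT necrotic, KO viable and KO necrotic) held 3 libraries. The labels do not say whether replicates came from separate animals or cultures, nor how old the animals were, so a p-value here speaks only of how far these libraries spread, and that spread may be technical.

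Mitochondrial DNA is transcribed from both strands into long RNAs, which are cut apart mainly at the tRNA sequences. The mRNAs then receive short poly(A) tails and are translated inside the organelle. Their products are core subunits of respiratory complexes I, III, IV and V, which are completed by many subunits encoded in the nucleus. Osteoclasts are rich in mitochondria, and oxidative phosphorylation rises as they form. Nuclear chromosomes also carry old copies of mitochondrial DNA, which are annotated as pseudogenes, and some of them are almost identical to the genes they came from.

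Levels below are CPM, which are counts scaled to the size of each library with TMM factors, and levels of different genes are compared per kilobase of gene. Differences between groups are log2 fold changes. The libraries held 16382366 to 49612055 counts, and the second deepest held 25429661. Clec4e stood at 21.9 to 27.8 CPM in the WT libraries and at 1.56 to 2.43 CPM in the KO libraries, so each library matched its genotype label. The defining osteoclast genes were abundant in every library, with the protease gene Ctsk at 4646 CPM or more and the acid phosphatase gene Acp5 at 3910 CPM or more. The 10 osteoclast markers summed to between 15465 and 23392 CPM, the 9 macrophage markers to between 5829 and 7482 CPM and the 8 stromal and bone markers to between 19.3 and 92.8 CPM. In cultures measured in bulk, fewer cells of a type and less RNA per cell cannot be told apart.

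Mitochondrial genes took 2.34% to 2.95% of all counts of a library. The 13 mRNA genes made up nearly all of this. They held 2.38% ± 0.113 (SD, n = 3) of the counts in WT viable, 2.39% ± 0.0555 in WT necrotic, 2.53% ± 0.165 in KO viable and 2.71% ± 0.151 in KO necrotic. By library, the share was 2.25%, 2.41% and 2.47% in WT viable, 2.45%, 2.35% and 2.36% in WT necrotic, 2.34%, 2.65% and 2.59% in KO viable, and 2.88%, 2.58% and 2.68% in KO necrotic. The KO necrotic libraries lay above all WT libraries, while KO viable overlapped with every other group. These shares are a description and carry no test.

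Per kilobase, the mRNA genes ranged from 7000 to 1.57 CPM, far more than any gene differed between groups. mt-Co1, the catalytic subunit of complex IV (chrM:5328-6872), was the highest at 7000 ± 472 CPM per kilobase (SD over 12 libraries) and alone supplied 40.7% to 45.2% of the mRNA counts. mt-Cytb, the subunit of complex III (chrM:14145-15288), followed at 3840 ± 268, and mt-Nd1 of complex I (chrM:2751-3707) at 3167 ± 247. These top levels kept their order in all 12 libraries.

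A middle tier followed, made of 4 further complex I subunits. mt-Nd2 (chrM:3914-4951) stood at 1704 ± 190 CPM per kilobase, mt-Nd5 (chrM:11742-13565) at 1426 ± 252, mt-Nd6 (chrM:13552-14070, minus strand) at 1358 ± 236 and mt-Nd4 (chrM:10167-11544) at 1139 ± 111. mt-Nd2 was above mt-Nd5 in all 12 libraries, but mt-Nd5, mt-Nd6 and the tRNA gene mt-Tp between them did not hold a fixed order. mt-Tp was below mt-Nd5 in 8 libraries and above mt-Nd6 in 6. mt-Nd6 is the only mRNA gene on the minus strand and shares 14 bases with mt-Nd5. The strand setting of the counting is not given in the sources used here, so mt-Nd6 and RNA antisense to its neighbours cannot be told apart.

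Both rRNA genes, which supply the RNA of the mitochondrial ribosome, lay lower. mt-Rnr1 (chrM:70-1024), the small subunit rRNA, stood at 296 ± 102 CPM per kilobase and mt-Rnr2 (chrM:1094-2675), the large subunit rRNA, at 287 ± 72.9. mt-Rnr1 was above mt-Rnr2 in 8 of 12 libraries, so these neighbours were not separated. The labels' protocols give total RNA as input to the library kit, and how rRNA was removed or mRNA enriched is not given in the sources used here.

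The lowest tier consisted of genes for complex IV, complex V and complex I. mt-Co2 of complex IV (chrM:7013-7696) stood at 122 ± 29.0 CPM per kilobase, mt-Co3 of the same complex (chrM:8607-9390) at 46.2 ± 10.7 and mt-Atp6 of complex V (chrM:7927-8607) at 42.0 ± 9.69. The complex I genes mt-Nd3 (chrM:9459-9806) and mt-Nd4l (chrM:9877-10173) stood at 10.1 ± 3.57 and 7.62 ± 2.47, and mt-Nd3 was the higher in 11 of 12 libraries. mt-Atp8 of complex V (chrM:7766-7969) was the lowest at 1.57 ± 0.790, with 3 to 15 counts in a library, and did not pass the filter on low counts. Thus mt-Co1, mt-Co2 and mt-Co3, which encode the core of one enzyme complex, stood at 7000, 122 and 46.2 CPM per kilobase in the deposited counts.

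**Figure D1:**
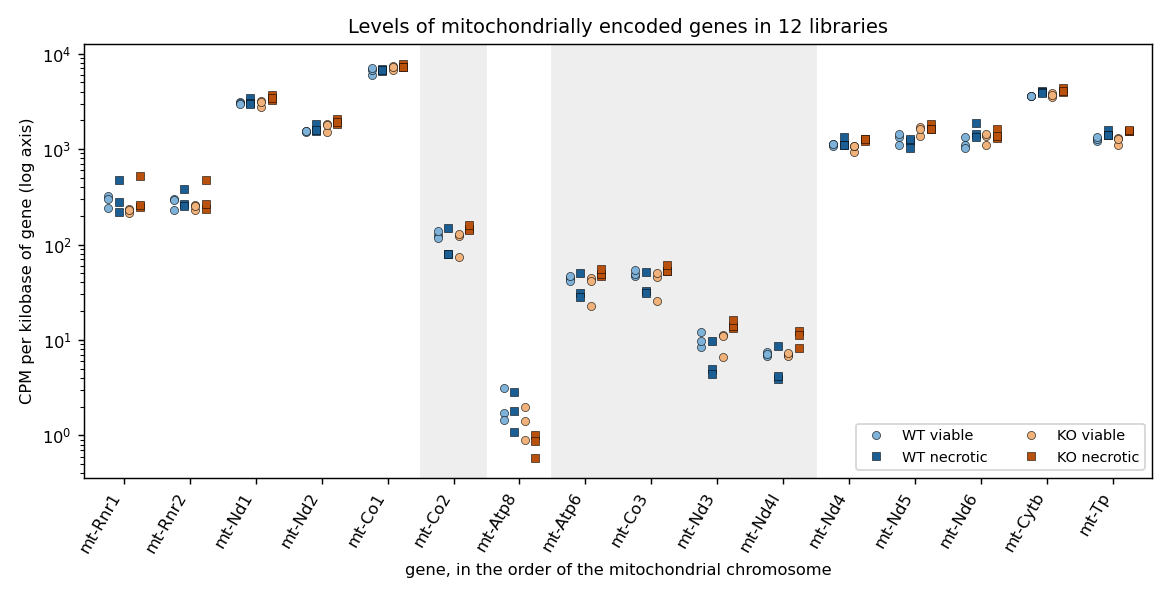
The vertical axis gives CPM per kilobase on a log scale for the 16 mitochondrial genes with counts, in chromosome order, and each point is 1 of the 12 libraries, coloured by group. Grey bands mark the 5 mRNA genes with a chromosome 1 copy over nearly all of their length, which stand between 7.62 and 122 CPM per kilobase on average, while mt-Co1 stands at 7000.

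Of the 22 tRNA genes, 21 were at 0 counts in all 12 libraries. With 0 counts, up to 3 could still be expected, which is 0.0605 to 0.183 CPM depending on the library. This limit covers counting error only. The exception was mt-Tp, the gene of the tRNA for proline (chrM:15356-15422, minus strand), which held 1437 to 4490 counts in a library and reached 1380 ± 157 CPM per kilobase. It is shown whole because it is the only tRNA gene with counts.
mt-Tp: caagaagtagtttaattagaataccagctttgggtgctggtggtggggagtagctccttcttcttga
mt-Tp is also the last annotated gene of the chromosome, with mt-Tt directly beside it and no gene after it. The tRNA genes at 0 have an annotated gene within 32 bases of each end, except mt-Tf, which starts at base 1. The part of these positions in the counts was not tested.

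The 5 lowest mRNA genes that passed the filter, mt-Co2, mt-Co3, mt-Atp6, mt-Nd3 and mt-Nd4l, were also the 5 whose sequence is repeated almost whole in annotated pseudogenes on chromosome 1. The matching pseudogenes lie side by side on the minus strand of chromosome 1. Gm28661 repeats 681 bases of mt-Co2, Gm10925 repeats 678 of mt-Atp6, Gm28437 repeats 783 of mt-Co3 and Gm10222 repeats 294 of mt-Nd4l, each without a mismatch. Gm28438 repeats 345 bases of mt-Nd3 with 1 mismatch. Of all 100-base stretches of these 5 genes, 97.6% to 99.9% also occur in a nuclear transcript. The starts of mt-Co2 and of its copy show what such identity looks like, with no base that could tell a read of one from a read of the other.
mt-Co2 (chrM:7013-7102): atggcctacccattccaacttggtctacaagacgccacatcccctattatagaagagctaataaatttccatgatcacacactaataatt
Gm28661 (chr1:24615476-24615565, minus strand): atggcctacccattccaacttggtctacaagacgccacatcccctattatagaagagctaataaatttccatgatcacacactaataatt

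The abundant genes had copies that were shorter or less alike. For mt-Nd4, 60.8% of the 100-base stretches occur in the chromosome 1 copy Gm28439, which covers its first 876 bases. For mt-Co1 the value was 30.8%, for mt-Nd2 3.2%, and for mt-Nd1, mt-Nd5, mt-Nd6, mt-Cytb, mt-Atp8 and both rRNA genes 0%. Only annotated transcripts were searched, so copies outside them would be missed. Most of mt-Atp8 lies between the stretches of mt-Co2 and mt-Atp6 that Gm28661 and Gm10925 repeat. The chromosome 1 sequence between these pseudogenes was not searched, so a copy of mt-Atp8 there was not tested. The copy of mt-Co1 on chromosome 2, Gm13340, is 97.6% identical to it over 1545 bases. The first 120 bases of each are shown because their 3 differences, in capitals, are of the kind that lets reads be assigned.
mt-Co1 (chrM:5328-5447): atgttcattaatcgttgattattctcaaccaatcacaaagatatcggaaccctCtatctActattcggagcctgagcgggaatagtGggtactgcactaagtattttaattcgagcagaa
Gm13340 (chr2:22589528-22589647, minus strand): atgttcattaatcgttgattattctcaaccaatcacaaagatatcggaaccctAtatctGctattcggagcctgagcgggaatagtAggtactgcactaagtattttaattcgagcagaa
Counted from the first base of mt-Co1, the differences are C54A, A60G and G87A, with the base of mt-Co1 first. Sequences come from the GENCODE M21 transcripts on GRCm38. The treatment of reads that fit several places is not given in the sources used here, so the levels of the 5 genes with near-whole copies, and of the copies, are uncertain. The part of the copies in the low levels was not tested.

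In 4 of these 5 genes the same 3 libraries stood apart. WT necrotic 2, WT necrotic 3 and KO viable 1 were the 3 lowest of the 12 libraries for mt-Co2, mt-Atp6, mt-Co3 and mt-Nd3, and for 5 of the 7 chromosome 1 copies. The 3 libraries were singled out from the values of these same genes, after the data were seen, so the pattern is a description and not a test. The copies share sequence with the genes and are not a separate observation. None of the other 10 mitochondrial genes tested had these 3 libraries lowest, and among all genes tested 1.89% did. mt-Co2 lay between 50.6 and 54.8 CPM in the 3 libraries and between 80.8 and 109 CPM in the other 9. mt-Co3 lay between 20.1 and 25.7 CPM against 36.2 to 48.3, and mt-Atp6 between 15.6 and 21.2 against 28.3 to 37.5. The ranges do not touch for these genes. mt-Nd4l was the exception among the 5, with 1.17 to 2.06 CPM in the 3 libraries and 2.00 to 3.72 CPM in the other 9, so its ranges overlap. Among the copies, Gm28661 lay between 28.7 and 31.4 CPM against 41.3 to 55.1, and Gm10925 between 29.0 and 32.7 against 47.9 to 64.7. The low values were not limited to chromosome 1, since the chromosome 2 copy of mt-Co1, Gm13340, lay between 4.35 and 5.35 CPM in the 3 libraries and between 6.23 and 8.82 CPM in the other 9. The chromosome 2 copy of mt-Co2, Gm13341, went the other way, with 3.29 to 4.23 CPM in the 3 libraries and 0.676 to 2.84 CPM in the rest. Because these libraries belong to different groups, each comparison of the 5 genes below is also given without them. They were chosen for low values in these genes, so leaving them out moves those values by construction and tests no cause.

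**Figure D2:**
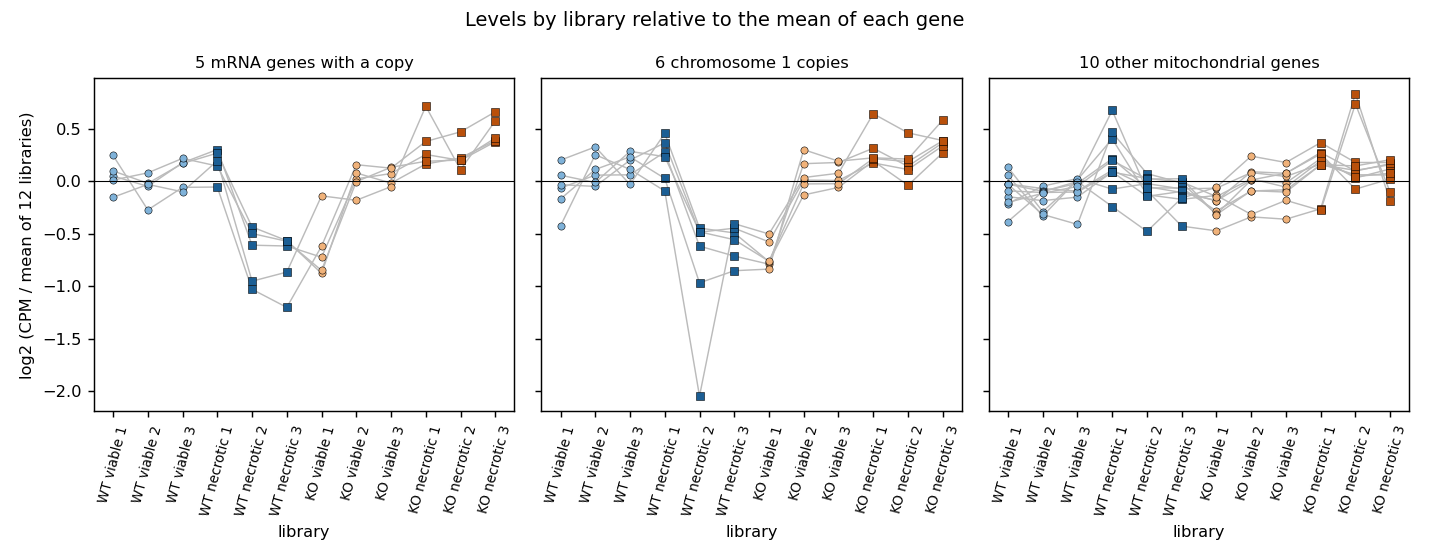
The vertical axis gives the log2 ratio of each library's CPM to the gene's mean over 12 libraries, for the 5 mRNA genes with a near-whole copy, 6 chromosome 1 copies (without Gm28438) and the 10 other tested mitochondrial genes, and a grey line joins the values of 1 gene. In the first panels WT necrotic 2, WT necrotic 3 and KO viable 1 sit below the other 9 libraries for all genes but mt-Nd4l and the copy Gm10222, with mt-Co2 at 50.6 to 54.8 CPM against 80.8 to 109, and in the last panel they are the 3 lowest for 0 of 10 genes.

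The share of mt-Nd3 in the summed counts of the gene and its copy differed by genotype. The single base that separates them is the third of mt-Nd3 (T3C, mt-Nd3 first), at position 9461 of the mitochondrial chromosome. It is shown in capitals.
mt-Nd3 (chrM:9459-9518): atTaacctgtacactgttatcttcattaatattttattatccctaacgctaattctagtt
Gm28438 (chr1:24613060-24613119, minus strand): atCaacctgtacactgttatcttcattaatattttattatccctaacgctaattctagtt
In the WT libraries the copy was above the gene, with Gm28438 at 7.25 to 13.4 CPM and mt-Nd3 at 1.53 to 4.18 CPM. In the KO libraries the gene was above the copy, with mt-Nd3 at 2.30 to 5.58 CPM and Gm28438 at 0.861 to 3.42 CPM. mt-Nd3 held 15.6% to 30.8% of the summed counts in the 6 WT libraries (mean 22.5% ± 5.83 SD) and 58.6% to 72.7% in the 6 KO libraries (mean 63.2% ± 5.08). The genotypes did not overlap, under either supernatant. Gm28438 itself was lower in KO than in WT by 2.49 (SE 0.26) on the log2 scale under viable supernatant (edgeR, adjusted p = 4.21e-05) and by 1.44 (SE 0.24) under necrotic supernatant (adjusted p = 0.00424). Whether WT and KO mice carried the same base at this position was not tested, since the counts hold no bases.

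**Figure D3:**
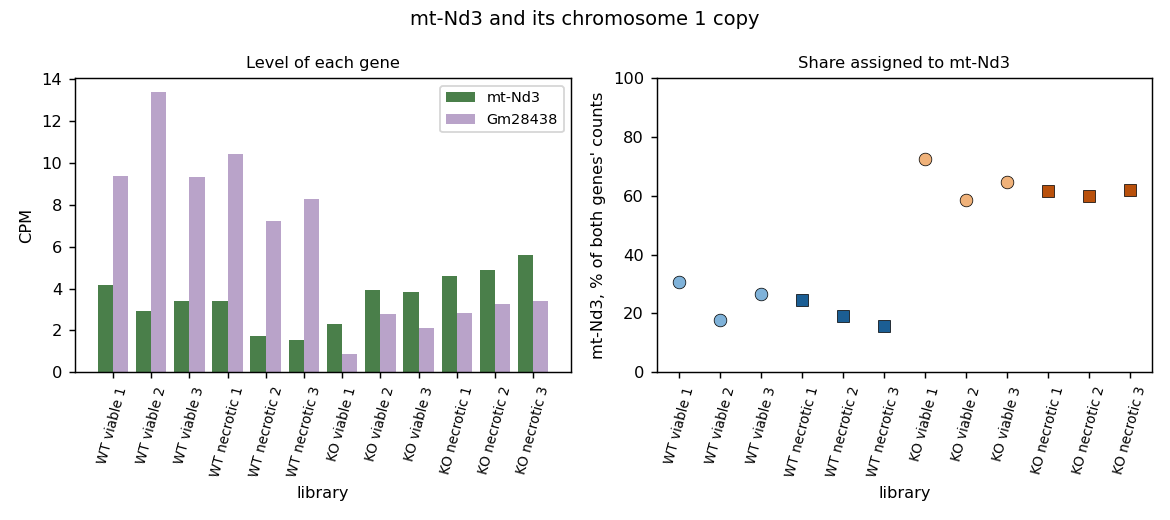
The left panel shows the CPM of mt-Nd3 and of its chromosome 1 copy Gm28438 in each of the 12 libraries, and the right panel the percentage of their summed counts that went to mt-Nd3. That share lies between 15.6% and 30.8% in WT and between 58.6% and 72.7% in KO.

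The first comparison asked how WT cells respond to necrotic supernatant, and no mitochondrial mRNA gene passed the threshold. Of the 12 tested, 0 were called by edgeR at an adjusted p of 0.05 while 9.31% of all 14153 genes were (4.81% as higher and 4.5% as lower). An unadjusted p under 0.05 was found for 3 of the 12 and for 3577 of the 14153 genes. DESeq2 also called 0 of the 12. With the trends over transcript length and GC content removed 4 of the 12 were called (mt-Nd2, mt-Nd4, mt-Nd6 and mt-Cytb), and with no filter on low counts 5 (mt-Co2, mt-Atp6, mt-Co3, mt-Nd3 and mt-Nd6). Without WT necrotic 1, the library of its group that was high in them, 4 of the copied genes were called as lower, with mt-Co2 at -0.68, mt-Co3 at -0.65, mt-Nd3 at -1.10 and mt-Nd4l at -0.80 (adjusted p = 0.0188, 0.0484, 0.0153 and 0.0408). The median log2 fold change of the 12 was -0.06, against -0.01 over all genes. The members lay on both sides of 0. The 7 genes without a near-whole copy ranged from -0.13 to 0.43, and 6 of the 7 were above 0. The 5 genes with such a copy all lay below 0, between -0.69 (mt-Nd3) and -0.30 (mt-Atp6).

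Among complex I genes in WT, mt-Nd6 came nearest to the threshold. It stood at 691, 567 and 531 CPM in WT viable and at 974, 742 and 698 CPM in WT necrotic. The groups did not touch, with the 3 necrotic libraries above the 3 viable ones, which was also so for mt-Nd2 and mt-Cytb among the 12 mRNA genes and for 24.3% of all genes in either direction. The log2 fold change of mt-Nd6 was 0.43 (SE 0.13, adjusted p = 0.0506), and it was called without WT viable 1, without WT necrotic 3 or without KO viable 1 (adjusted p = 0.015, 0.027 and 0.0373). mt-Nd5, mt-Nd1, mt-Nd2 and mt-Nd4 had log2 fold changes of -0.13, 0.05, 0.11 and 0.08 with adjusted p between 0.357 and 0.689.

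The complex III gene mt-Cytb stood at 4128, 4084 and 4095 CPM in WT viable and at 4668, 4482 and 4378 CPM in WT necrotic. Its groups did not overlap either, and the difference was 0.14 on the log2 scale (SE 0.05, adjusted p = 0.0929). mt-Co1 differed by 0.02 (SE 0.05, adjusted p = 0.874). mt-Co2, mt-Co3 and mt-Atp6 differed by -0.32, -0.40 and -0.30 with adjusted p of 0.364, 0.230 and 0.385. The 3 libraries low in these genes were chosen for that, so leaving out WT necrotic 2 and 3 was bound to raise these values. Without the 3 libraries mt-Co2, mt-Co3 and mt-Atp6 gave 0.23, 0.03 and 0.18, and mt-Nd3 and mt-Nd4l gave -0.04 and 0.29. That fit leaves WT necrotic with 1 library, which is assumed to vary like the other groups, and it called mt-Nd6 (0.71, adjusted p = 0.0187) and mt-Nd4 (0.26, adjusted p = 0.0340). mt-Rnr1 and mt-Rnr2 differed by 0.16 and 0.13, well within their SEs of 0.26 and 0.21. mt-Tp stood at 80.5, 85.5 and 89.5 CPM in WT viable and at 106, 93.9 and 94.1 CPM in WT necrotic. Its log2 fold change was 0.20 (SE 0.06) and missed the threshold (adjusted p = 0.0647), but passed it with DESeq2 (adjusted p = 0.0399), without KO viable 1 (0.04), without the 3 libraries (0.0287) and once trends over length and GC content were taken out (0.37, adjusted p = 0.0132).

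In KO cells mt-Nd4 of complex I and the tRNA gene mt-Tp were higher with necrotic than with viable supernatant. Of the 12 mRNA genes tested, 1 was called, mt-Nd4, while 7.43% of all genes were called, 4.0% as higher and 3.43% as lower. Unadjusted p was under 0.05 for 9 of the 12 and for 3137 of the 14153 genes. Groups did not overlap for 9 of the 12 and for 31.3% of all genes. The 5 genes with a near-whole copy were among the 9 in both counts. The median log2 fold change of the 12 was 0.24, against 0.00 over all genes, and all 12 lay above 0. The count of 1 became 0 without KO viable 1, without KO necrotic 1 or without KO necrotic 3. It rose to 2 with DESeq2, limma voom, upper-quartile factors or a filter of 5 CPM, each of which added mt-Cytb, and to 4 without WT necrotic 1 (mt-Nd1, mt-Nd4, mt-Cytb and mt-Nd4l).

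mt-Nd4 stood at 1292, 1474 and 1485 CPM in KO viable and at 1751, 1689 and 1752 CPM in KO necrotic. All necrotic libraries were above all viable ones, by 0.29 on the log2 scale (SE 0.07, adjusted p = 0.0216). Leaving out KO viable 1, the lowest of them, gave 0.23 with an adjusted p of 0.0924, and the adjusted p was 0.0814 without KO necrotic 1 and 0.0836 without KO necrotic 3. Adding the counts of its copy Gm28439 (5.85 to 17.1 CPM) left the value at 0.29. Of the other complex I genes without a near-whole copy, mt-Nd1 and mt-Nd2 gave 0.18 each (adjusted p = 0.0957 and 0.155), mt-Nd5 0.12 and mt-Nd6 0.14. mt-Cytb gave 0.16 (SE 0.05, adjusted p = 0.0545), from 3975, 4469 and 4231 CPM to 5032, 4535 and 4637 CPM, and the groups did not overlap.

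mt-Co1 gave the smallest difference of the mRNA genes in KO, 0.07 (SE 0.05, adjusted p = 0.469). The 5 genes with a near-whole copy gave 0.45 (mt-Co2), 0.45 (mt-Co3), 0.48 (mt-Atp6), 0.58 (mt-Nd3) and 0.62 (mt-Nd4l), none of them called. For each of these 5 the viable and necrotic groups did not overlap, which held for 31.3% of all genes, and KO viable 1 is among the 3 libraries described above. Without those libraries the values were 0.23 (mt-Co2), 0.20 (mt-Co3), 0.23 (mt-Atp6), 0.37 (mt-Nd3) and 0.61 (mt-Nd4l), with adjusted p between 0.063 and 0.22. mt-Tp stood at 74.2, 87.0 and 86.2 CPM in KO viable and at 103, 102 and 107 CPM in KO necrotic. It was higher by 0.34 (SE 0.06, adjusted p = 0.0060) and stayed called with any 1 of the 12 libraries left out, while the adjusted p was 0.0709 once the trends over length and GC content were removed. The size of the rRNA differences rested largely on 1 library. mt-Rnr1 stood at 236, 504 and 248 CPM in KO necrotic against 204, 223 and 220 CPM in KO viable. Its groups did not overlap, and the log2 fold change was 0.61 (adjusted p = 0.188). mt-Rnr2 gave 0.40 (adjusted p = 0.278) with groups that overlapped. With 1 library left out, the lowest values were 0.16 for mt-Rnr1 and 0.02 for mt-Rnr2. KO necrotic 2 was the highest of the 12 libraries for both rRNA genes, and WT necrotic 1 with 451 CPM of mt-Rnr1 was the next.

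The responses of KO and WT cells could not be separated by the test of their difference. edgeR called 0% of the 14153 genes for that difference, the lowest adjusted p was 0.571, and 1064 genes had an unadjusted p under 0.05. DESeq2 called 5 genes, and 209 were called with no filter. The 5 mRNA genes with a near-whole copy had differences (KO minus WT) between 0.76 for mt-Co2 and 1.28 for mt-Nd3, all 5 with an unadjusted p under 0.05. None of the 7 other mRNA genes did, and they ranged from -0.29 (mt-Nd6) to 0.25 (mt-Nd5). Without the 3 libraries the difference was -0.0020 for mt-Co2, 0.06 for mt-Atp6, 0.17 for mt-Co3, 0.41 for mt-Nd3 and 0.32 for mt-Nd4l.

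**Figure D4:**
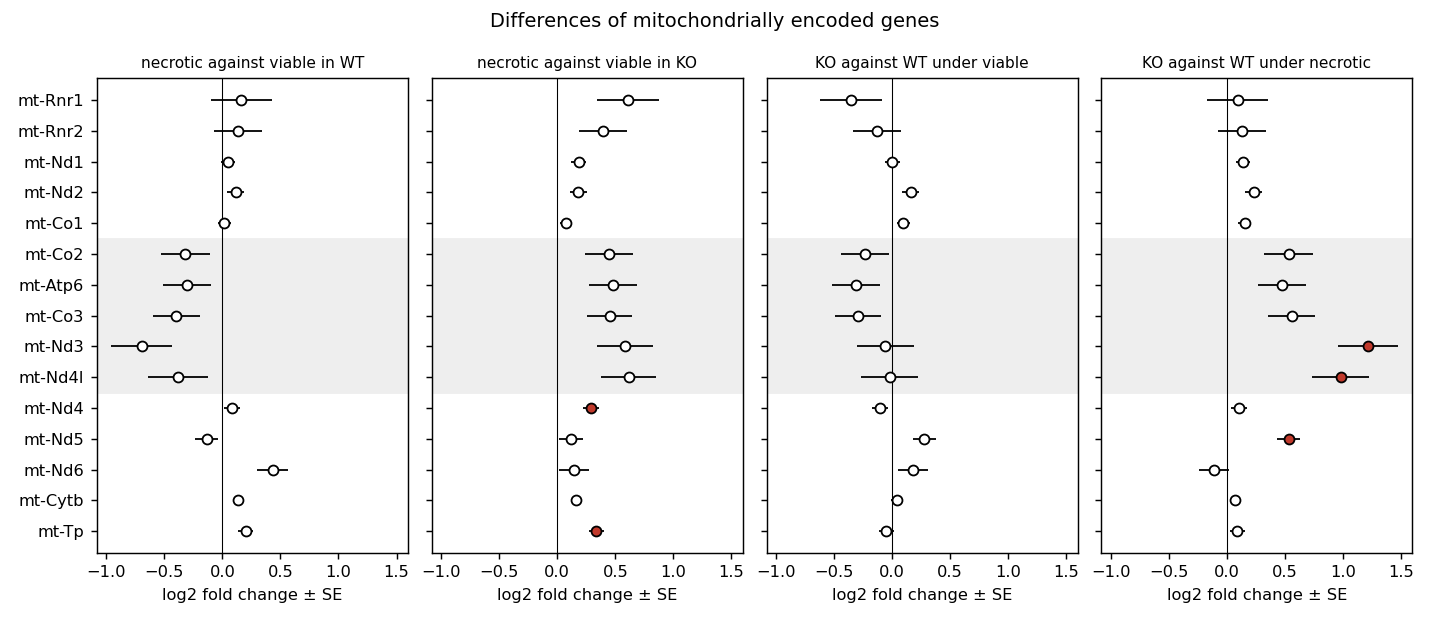
The horizontal axis gives the log2 fold change with its SE for the 15 tested mitochondrial genes in 4 comparisons, filled where the adjusted p was under 0.05, and grey bands mark the 5 mRNA genes with a near-whole chromosome 1 copy. The called genes are mt-Nd4 (0.29) and mt-Tp (0.34) in KO, and mt-Nd3 (1.22), mt-Nd4l (0.98) and mt-Nd5 (0.53) in KO against WT under necrotic supernatant.

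Under viable supernatant, KO and WT cells did not differ in any mitochondrial mRNA gene at the threshold. Of the 12 tested, 0 were called by edgeR, with 5.84% of all genes called (2.87% as higher and 2.97% as lower). An unadjusted p under 0.05 was found for 2 of the 12 and for 3375 of all 14153 genes. DESeq2 called 0 as well. Groups did not overlap for 0 of the 12 and for 28.8% of all genes. With no filter 5 were called (mt-Co2, mt-Atp6, mt-Co3, mt-Nd5 and mt-Nd6), with the length and GC trends removed 1 (mt-Nd2), and without the 3 libraries 2 (mt-Nd2 and mt-Nd5). mt-Nd5, the complex I subunit in the membrane arm, came nearest, at 1996, 2432 and 2600 CPM in WT viable and 2504, 3074 and 2947 CPM in KO viable. The lowest KO value lay inside the WT range, and the log2 fold change was 0.28 (SE 0.10, adjusted p = 0.105). mt-Co1 and mt-Cytb gave 0.10 and 0.04, and the 5 genes with a near-whole copy lay between -0.31 (mt-Atp6) and -0.02 (mt-Nd4l). Without the 3 libraries they gave -0.02 (mt-Co2), -0.07 (mt-Atp6), -0.04 (mt-Co3), 0.15 (mt-Nd3) and -0.01 (mt-Nd4l). mt-Rnr1, mt-Rnr2 and mt-Tp gave -0.35, -0.13 and -0.05 with adjusted p of 0.459, 0.752 and 0.701.

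Under necrotic supernatant, 3 complex I genes were higher in KO than in WT, mt-Nd5, mt-Nd3 and mt-Nd4l. They were 3 of the 12 mRNA genes tested, while 8.13% of all genes were called, 5.00% as higher and 3.12% as lower. Unadjusted p was under 0.05 for 9 of the 12, among them the 5 genes with a near-whole copy, and for 3626 of the 14153 genes. The median log2 fold change of the 12 was 0.35, against -0.01 over all genes, and mt-Nd6 with -0.11 was the exception below 0. Without the 3 libraries low in copied genes, which leaves WT necrotic with 1 library assumed to vary like the other groups, 0 of the 12 were called, and 177 of all genes in place of 1150. The count was also 0 without KO necrotic 1, 1 without WT necrotic 2 (mt-Nd5), 5 without KO viable 1 and 8 without WT necrotic 1.

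mt-Nd5 stood at 2203, 1871 and 2330 CPM in WT necrotic and at 3361, 2948 and 2947 CPM in KO necrotic. The lowest KO library was above the highest WT library, and the log2 fold change was 0.53 (SE 0.10, adjusted p = 0.00768). No 100-base stretch of mt-Nd5 occurs in an annotated nuclear transcript. The value stayed between 0.44 and 0.60 with any 1 library left out. Without KO necrotic 1 the adjusted p was 0.0556, and without the 3 libraries the value was 0.49 with an adjusted p of 0.0575.

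mt-Nd3 stood at 3.40, 1.73 and 1.53 CPM in WT necrotic and at 4.59, 4.89 and 5.58 CPM in KO necrotic, with no overlap. Its log2 fold change was 1.22 (SE 0.26, adjusted p = 0.0135). The direction turned when the counts of its copy were added, to -0.40. The call was also lost without WT necrotic 2 (adjusted p = 0.0735), without KO necrotic 1 (0.0511) and without the 3 libraries (0.56, adjusted p = 0.196). mt-Nd4l stood at 2.59, 1.17 and 1.24 CPM in WT necrotic and at 3.72, 2.44 and 3.37 CPM in KO necrotic. The groups overlapped, and its log2 fold change of 0.98 (SE 0.25, adjusted p = 0.0283) was no longer called without WT necrotic 2, WT necrotic 3, KO necrotic 1 or KO necrotic 3 (adjusted p = 0.129, 0.0774, 0.131 and 0.0703), and fell to 0.31 without the 3 libraries.

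The other genes were not called. mt-Nd2 gave 0.23 (adjusted p = 0.0682) and mt-Co1 0.15 (adjusted p = 0.0921), in both cases with groups that did not overlap. Groups did not overlap for 5 of the 12 mRNA genes, and for 29.8% of all genes. mt-Cytb, mt-Nd1 and mt-Nd4 gave 0.07, 0.14 and 0.10. mt-Co2, mt-Co3 and mt-Atp6 gave 0.53, 0.56 and 0.47 with adjusted p of 0.124, 0.0948 and 0.165, which became -0.02, 0.13 and -0.01 without the 3 libraries. mt-Rnr1, mt-Rnr2 and mt-Tp lay between 0.09 and 0.13. The necrotic supernatant comparison and the comparison of genotypes share libraries, so their values are not independent of each other.

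The nuclear genes for the partner subunits of complexes I, III, IV and V were called more often than the mitochondrial mRNA genes in both responses. All 72 of these genes were tested. In WT 23 were higher with necrotic supernatant and 0 lower, with a median log2 fold change of 0.15, and in KO 46 were higher and 0 lower, with a median of 0.28. Under viable supernatant 28 were lower in KO than in WT and 0 higher (median -0.22), and under necrotic supernatant 8 were lower and 0 higher (median -0.11). Over all genes 4.81% and 4.0% were called as higher in the WT and KO responses and 2.97% and 3.12% as lower in KO under viable and necrotic supernatant, with medians between -0.01 and 0.00. The 12 mitochondrial mRNA genes had medians of -0.06 and 0.24 in the WT and KO responses. Between the genotypes their medians were -0.01 under viable and 0.35 under necrotic supernatant. In the KO response all 12 of them and 71 of the 72 nuclear genes lay above 0. The mitochondrial mRNA genes had 0 called as lower in any of these comparisons. These counts depend on single libraries, since leaving out 1 library gave between 4 (without WT viable 2) and 42 (without WT viable 1) higher in WT, and between 17 (without KO necrotic 3) and 59 (without WT viable 1) in KO. KO against WT gave between 3 (without WT viable 1 or KO viable 1) and 41 (without WT necrotic 1) lower under viable supernatant. Under necrotic supernatant it gave between 0 (without WT necrotic 2 or any 1 of the KO necrotic libraries) and 18 (without WT viable 1). In every one of these fits the calls kept the direction given here, apart from 1 gene called as higher in KO under necrotic supernatant without WT necrotic 1.

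Part of these differences went along with transcript length. Over 14110 genes, the log2 fold change of KO against WT had a Spearman correlation with transcript length of 0.35 under viable and 0.29 under necrotic supernatant, as a description across genes, which are not replicates. The 3250 genes within the length range of the tested mitochondrial mRNAs (297 to 1824 bases) had a median of -0.11 and -0.08 in these comparisons, and of 0.04 and 0.08 in the WT and KO responses. With the trends over length and GC content removed, the nuclear subunits called as lower in KO were 10 in place of 28 under viable supernatant and 10 in place of 8 under necrotic supernatant, and those called as higher in the responses were 32 in WT and 45 in KO. Without the 3 libraries the counts were 7 and 41 in the responses, and 21 and 0 between the genotypes.

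In complex I, 8 of 36 nuclear subunits rose in WT and 21 in KO. Ndufv1, which carries the NADH-binding site, rose by 0.24 in WT (adjusted p = 0.00519) and by 0.25 in KO (adjusted p = 0.00362). Ndufa9 rose by 0.28 in KO, from 86.8 ± 2.60 to 106 ± 2.57 CPM (adjusted p = 0.00195), and was lower in KO than in WT under viable supernatant by 0.28 (adjusted p = 0.00295). For KO against WT under viable supernatant, none of the mitochondrial genes of the same complex was called. mt-Nd5, mt-Nd6 and mt-Nd2 gave 0.28, 0.18 and 0.16, and mt-Nd1, mt-Nd4l, mt-Nd3 and mt-Nd4 gave 0.0017, -0.02, -0.06 and -0.10. Under necrotic supernatant Ndufs3 was lower in KO by 0.19 (adjusted p = 0.0334). There mt-Nd5 was higher by 0.53. mt-Nd3 and mt-Nd4l were also called as higher, but mt-Nd3 gave -0.40 with the counts of its copy added. With 1 library left out, mt-Nd4l lost its call in 4 of 12 fits and mt-Nd5 in 1. mt-Nd2, mt-Nd1, mt-Nd4 and mt-Nd6 gave 0.23, 0.14, 0.10 and -0.11, not called.

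In complex III, 5 of 9 rose in WT and 7 in KO. Cyc1, the cytochrome c1 gene, rose by 0.22 in WT and 0.33 in KO (adjusted p = 0.0103 and 0.000648), and Uqcrfs1, the Rieske iron-sulfur protein, by 0.28 and 0.27 (adjusted p = 0.00361 and 0.00436). Their mitochondrial partner mt-Cytb gave 0.14 and 0.16, not called. In complex IV, 5 of 11 rose in WT and 7 in KO. Cox8a rose by 0.23 and 0.27 (adjusted p = 0.0243 and 0.0135) and Ndufa4 by 0.23 and 0.34 (adjusted p = 0.0192 and 0.00275). Of their mitochondrial partners, mt-Co1 gave 0.02 and 0.07. mt-Co2 and mt-Co3, which have a near-whole copy, gave -0.32 and -0.40 in WT and 0.45 each in KO. None of these partners was called. In complex V, 5 of 16 rose in WT and 11 in KO, among them Atp5b, the beta subunit of the ATP synthase, by 0.21 and 0.25 (adjusted p = 0.00487 and 0.00195). mt-Atp6, which also has a near-whole copy, gave -0.30 and 0.48, not called. Complexes IV and V had 5 and 8 subunits lower in KO under viable supernatant, such as Cox7a2 by 0.33 (adjusted p = 0.0169) and Atp5g1 by 0.28 (adjusted p = 0.0239).

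Summed over genes, the mitochondrial mRNAs were higher relative to the nuclear subunits in KO. The ratio of summed CPM was 1.47, 1.72 and 1.79 in WT viable, 1.53, 1.48 and 1.56 in WT necrotic, 1.89, 2.10 and 2.07 in KO viable, and 1.97, 1.80 and 1.79 in KO necrotic. Under each supernatant every KO library was above every WT library. The means were 1.66 ± 0.167, 1.52 ± 0.0357, 2.02 ± 0.116 and 1.85 ± 0.100 (SD, n = 3). The nuclear sum was 14195 ± 896, 15975 ± 635, 12368 ± 162 and 14776 ± 180 CPM, and the mitochondrial sum 23496 ± 994, 24318 ± 837, 24968 ± 1740 and 27367 ± 1405 CPM, in the same order. The ratio is a description without a test. It was not corrected for the trends over length and GC content, and mt-Co1 alone supplied 40.7% to 45.2% of the mitochondrial mRNA counts. Osteoclast marker sums moved with the same groups. They were 17498 to 17829 CPM in WT viable and 22105 to 23392 in WT necrotic. In KO viable they were 15465 to 15778 CPM and in KO necrotic 19580 to 20390. All 10 of these markers were called as higher in both responses, where 4.81% (WT) and 4.0% (KO) of all genes were. The 9 neutrophil and precursor markers summed to 1199 to 1263 CPM in WT viable, 1022 to 1163 in WT necrotic, 984 to 1067 in KO viable and 892 to 940 in KO necrotic. Of these 9, 1 was called as lower in KO under viable supernatant (2.97% of all genes) and 5 under necrotic supernatant (3.12% of all genes). Stromal and bone markers summed to 59.8 to 92.8, 30.8 to 46.1, 24.4 to 46.0 and 19.3 to 35.7 CPM in these groups. The part of these in the result was not tested.

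**Figure D5:**
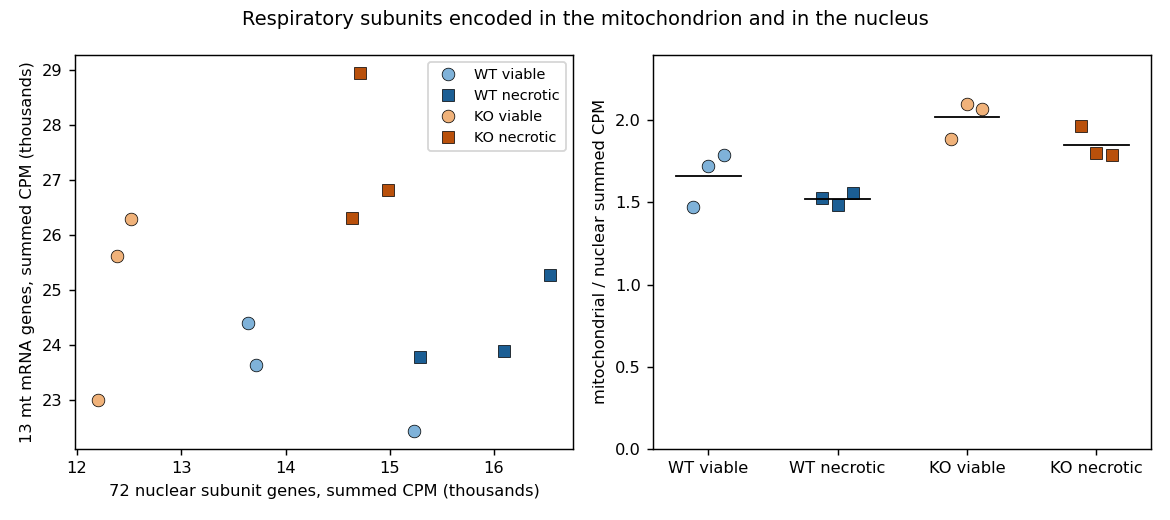
The left panel sets the summed CPM of the 13 mitochondrial mRNA genes against that of 72 nuclear subunit genes, with 1 point per library, and the right panel shows their ratio with the mean of each group as a line. The KO libraries lie at ratios of 1.79 to 2.10 and the WT libraries at 1.47 to 1.79.

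Of 17 tested genes that transcribe mitochondrial DNA or regulate this, 0 were called in WT (9.31% of all genes) and 2 in KO (7.43% of all genes). In KO Esrra, a nuclear receptor that drives respiratory genes, rose by 0.21 (adjusted p = 0.0216) while the coactivator gene Pprc1 fell by 0.26 (adjusted p = 0.0416). The polymerase gene Polrmt gave 0.05 in WT and -0.12 in KO, and Tfam, which packages and activates mitochondrial DNA, gave 0.03 and 0.16 (adjusted p between 0.224 and 0.857). Neither was called between the genotypes, where Polrmt gave 0.01 and -0.16 and Tfam -0.20 and -0.07. Among 14 replication and nucleoid genes, the nuclease gene Dna2 fell by 0.50 in WT and by 0.49 in KO (adjusted p = 0.000372 and 0.000429). Under necrotic supernatant Rrm2b, a ribonucleotide reductase subunit, was higher in KO by 0.33 (adjusted p = 0.0148) and the protease gene Lonp1 lower by 0.16 (adjusted p = 0.0397). These are 1 of the 14 in each response and 2 between the genotypes, where 8.13% of all genes were called.

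Of 22 genes that cut, stabilise or degrade mitochondrial RNA, 3 rose in each response and 0 fell, and they were the same 3. Of all genes, 4.81% were called as higher in WT and 4.0% in KO. Trmt10c and Hsd17b10 encode parts of the mitochondrial RNase P, which frees the 5′ ends of tRNAs, and rose by 0.24 and 0.21 in WT and by 0.22 and 0.32 in KO (adjusted p between 0.00168 and 0.0441). Fastk, whose product is needed for the mRNA of mt-Nd6, rose by 0.20 in both (adjusted p = 0.0154 and 0.0177). Lrpprc, which with Slirp binds and stabilises mitochondrial mRNAs, gave 0.20 in WT (adjusted p = 0.0516) and 0.10 in KO (adjusted p = 0.372). Slirp gave -0.25 and 0.37 without a call, and under viable supernatant it was lower in KO, at 8.76 ± 0.884 against 14.0 ± 4.25 CPM (0.66 lower on the log2 scale, adjusted p = 0.0379). Hsd17b10 and Fastkd5 were lower in KO there too, by 0.27 and 0.52 (adjusted p = 0.00791 and 0.0439). With Slirp they were 3 of the 22, where 2.97% of all genes were called as lower.

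The largest genotype difference in the machinery was in Cdk5rap1, which modifies mitochondrial tRNAs. It stood at 18.4 ± 1.11 CPM in WT viable and 9.16 ± 0.267 in KO viable, and at 19.0 ± 0.621 in WT necrotic and 9.27 ± 0.270 in KO necrotic. KO was lower by 1.01 and 1.04 on the log2 scale (SE 0.08, adjusted p = 9.27e-07 and 9.04e-07), and the gene was not called in either response. Among 18 tRNA and rRNA modification genes the other call was Pus1, lower in KO under necrotic supernatant by 0.33 (adjusted p = 0.0255). Of 17 mitochondrial aminoacyl-tRNA synthetases, Fars2 rose in WT by 0.29 (adjusted p = 0.0212) and Pars2, the synthetase for proline, was lower in KO under viable supernatant by 0.46 (adjusted p = 0.0287). Of 12 translation factors, Tufm, the mitochondrial elongation factor Tu, and Oxa1l, which inserts new subunits into the inner membrane, rose in WT by 0.27 and 0.16 (adjusted p = 0.0196 and 0.0469). Gfm1, an elongation factor, rose in KO by 0.20 (adjusted p = 0.0491), and Tufm was lower in KO than in WT under necrotic supernatant by 0.26 (adjusted p = 0.0283).

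Of 15 nuclear genes for other mitochondrial proteins, 4 rose in WT and 6 in KO, and 0 fell, where 4.81% and 4.0% of all genes rose. Organelle content itself was not measured. Slc25a5, an ADP/ATP carrier of the inner membrane, rose by 0.24 in WT (adjusted p = 0.02), and Tomm20, an import receptor of the outer membrane, rose by 0.21 in KO (adjusted p = 0.00666). Under viable supernatant 6 were lower in KO (2.97% of all genes), among them Phb and Phb2, the prohibitins of the inner membrane, by 0.26 and 0.24 (adjusted p = 0.0171 and 0.0177). Under necrotic supernatant 2 were lower (3.12% of all genes), Tomm40 by 0.24 and Phb2 by 0.18 (adjusted p = 0.0239 and 0.0474).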

How the data were processed

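RNA from 12 osteoclast cultures was sequenced in pairs of reads. What the authors deposited is 1 table with a raw count for each gene and library, not normalized. Per the submitters' processing notes, the tools were CASAVA, HISAT2 2.0.5 and HTSeq 0.6.1 with GRCm38; the sources used here do not give the annotation release, the strand setting or the handling of reads with several matches. Groups and replicate numbers came from the sample titles.

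Ensembl identifiers were matched to GENCODE M21 (46488 matched, 495 did not). Nuclear copies were sought with blastn 2.17.0 among all other GENCODE M21 transcripts (at least 95% identity over 50 bases). edgeR 4.0.16 in R 4.3.3 kept 14153 genes (filterByExpr), scaled with TMM and fitted 1 quasi-likelihood model with 4 group means to all 12 libraries (8 residual degrees of freedom, biological coefficient of variation 7.18%), after tests on simulated data. P-values are two-sided and adjusted over all 14153 genes by Benjamini-Hochberg, with a threshold of 0.05. An adjusted p without another tool named is from this fit, and the standard error (SE) is the log2 fold change divided by the square root of F. Library depth limits low genes, since 3 counts are 0.0605 to 0.183 CPM.

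All 37 genes are accounted for, and the text names every mRNA and rRNA gene, each tRNA gene kept by the filter and, per pathway list, up to 3 called genes with the smallest p in a comparison, with Polrmt, Tfam, Lrpprc and Slirp always. Some genes that the rule takes in are not reported here. Genes, lists and rules were chosen with earlier results of these data known. Alternatives were other scalings, DESeq2 1.42.0, limma 3.58.1 (voom), other filters, a length and GC correction, a replicate block, the compared groups alone, a 2-fold limit, thinning of the deepest library and leaving out each library. After the data were seen, adding nuclear copies to their genes and leaving out 3 libraries were added.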

Additional observations from a re-analysis of the deposited data

How the results depend on the processing

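Over 66 gene results (a gene in a comparison), leaving out 1 library at a time kept direction and side of the threshold in 743 fits, turned 18, lost 10 calls and added 21, and the other alternatives kept 824, turned 21, lost 8 and added 55. The causes were not tested, except where fewer libraries, another filter or added counts define the alternative. Genes of a few counts per library, mt-Nd3, mt-Nd4l and the untested mt-Atp8, are limited by depth.

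With only the groups compared in the fit, the genes called were 359 in place of 1318 for the WT response, 1820 in place of 1052 for the KO response and 449 in place of 827 for KO against WT under viable supernatant. A 2-fold limit left 54, 36, 85 and, under necrotic supernatant, 114 of 1150. No filter gave 1618 and 1857 between the genotypes and 209 in place of 0 for the difference of responses, where DESeq2 gave 5. Removing length and GC trends gave 650 under necrotic supernatant. Leaving out the 3 libraries low in copied genes gave 335 for the WT response and 177 under necrotic supernatant.

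Of the 12 mitochondrial mRNA genes, those called in the WT response were 0, and 4 with length and GC trends removed, 1 with limma voom or with nuclear copies added (mt-Nd6 in both), 5 with no filter and 2 without the 3 libraries. In the KO response 1 was called, and 0 with the 2-fold limit, 2 with DESeq2, the 5 CPM filter, limma voom or upper-quartile factors, 4 with only the groups compared and 7 with no filter. For the difference of responses 0 became 4 with no filter. Under viable supernatant 0 became 1 with trends removed (mt-Nd2) or with copies added (mt-Nd3, -1.42), 5 with no filter and 2 without the 3 libraries. Under necrotic supernatant 3 became 1 with the 2-fold limit (mt-Nd3) or the 5 CPM filter (mt-Nd5), 8 with no filter, 5 with only the groups compared and 0 without the 3 libraries. As a percentage of nuclear protein-coding counts the mRNA share was higher in all 4 groups, at 2.48% in WT viable, 2.49% in WT necrotic, 2.63% in KO viable and 2.85% in KO necrotic.

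The replicate block gave 1 mRNA gene in the WT response, mt-Nd6, with an adjusted p of 0.0456. It changed no other call of these genes. The numbers were not taken to pair the libraries, since same-numbered libraries correlated at -0.255 to 0.143 and others at -0.175 to 0.202.

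Leaving out 1 library gave 385 to 2015 genes for the WT response, 383 to 1277 for KO, 0 to 0 for their difference, and 227 to 1060 and 163 to 1605 between the genotypes under viable and necrotic supernatant. For mitochondrial mRNA genes the ranges were 0 to 4, 0 to 4, 0 to 0, 0 to 0 and 0 to 8. The mRNA share ranged over 2.33% to 2.44% in WT viable, 2.36% to 2.41% in WT necrotic, 2.46% to 2.62% in KO viable and 2.63% to 2.78% in KO necrotic.

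Log2 fold changes that turned with 1 library left out ranged, in the WT response, over -0.21 to 0.38 for mt-Rnr1, -0.073 to 0.24 for mt-Rnr2, -0.016 to 0.093 for mt-Nd1, -0.046 to 0.071 for mt-Co1 and -0.016 to 0.13 for mt-Nd4. Under viable supernatant the ranges were -0.032 to 0.061 for mt-Nd1, -0.19 to 0.16 for mt-Nd3, -0.063 to 0.0062 for mt-Nd4l and -0.089 to 0.022 for mt-Tp. Under necrotic supernatant they were -0.35 to 0.47 for mt-Rnr1, -0.25 to 0.34 for mt-Rnr2 and -0.22 to 0.047 for mt-Nd6.

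Without the 3 libraries the WT response turned for mt-Co2 (0.23), mt-Atp6 (0.18), mt-Co3 (0.031) and mt-Nd4l (0.29), and the difference of responses for mt-Co2 (-0.0020). KO against WT turned under viable supernatant for mt-Nd3 (0.15) and mt-Tp (0.019), and under necrotic supernatant for mt-Rnr1 (-0.46), mt-Rnr2 (-0.22), mt-Co2 (-0.023), mt-Atp6 (-0.0077), mt-Nd4 (-0.075) and mt-Tp (-0.028). Under viable supernatant mt-Nd1 turned with upper-quartile factors (-0.023) and limma voom (-0.00020), and mt-Nd4l with WT viable 3 thinned (0.028). With trends removed mt-Nd3 (0.015), mt-Nd4l (0.087) and mt-Tp (0.047) turned under viable supernatant and mt-Tp (-0.052) under necrotic supernatant. With its copy added, mt-Nd3 turned to -0.40 under necrotic supernatant.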
